A study of Mus musculus with 2 samples.

Results

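The genes described here encode leukocyte integrin subunits and a selectin ligand. They were chosen by symbol and number 9 of the 28692 genes in the count matrices: Itgal, Itgam, Itgax, Itgb2, Itga4, Itgb1, Itgav, Itgb5 and Selplg. Where a symbol stood in more than 1 row the first row was taken, which applied to Itgam. All 9 had UMIs (unique molecular identifiers, the counted RNA molecules) in both libraries.

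The cells were GR-1+ cells from tumors of 4T1, a mouse triple-negative breast carcinoma line, grown in the mammary fat pad of young adult female BALB/c mice. 4T1p is the parental line, whose tumors resist anti-PD1, and 4T1m is a polyclonal population made from it by exposure to the mutagen MNNG, whose tumors respond. Both groups received anti-PD1, and no group without the antibody is analysed here. GR-1+ cells were selected with magnetic beads from dissociated tumors, and each tumor type gave a single droplet library (10x Genomics, 3′ tags). How many mice gave cells to a library is not given in the sources used here. Each library has the median UMI count that the study's methods give for the other tumor type, so libraries are named below by their label, and a direction between them holds only as far as the labels do.

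Integrins are pairs of an alpha and a beta chain that bind ligands on other cells or in the matrix once signals from inside the cell have activated them. Myeloid cells carry the beta2 family (Itgb2 with Itgal, Itgam or Itgax), which binds ICAMs, complement fragments and fibrinogen, together with VLA-4 (Itga4 with Itgb1), which binds VCAM-1 and fibronectin, and pairs of Itgav with Itgb1, Itgb5 or other beta chains that bind vitronectin and other matrix proteins. Selplg encodes PSGL-1, the mucin on which leukocytes roll along selectins before integrins arrest them, and the product of Itgam, CD11b, is one of the antigens by which myeloid cells of tumors are sorted.

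After limits on detected genes, UMIs and mitochondrial share, 1128 of 1641 barcodes of the library labelled 4T1p and 2092 of 2749 of the library labelled 4T1m were kept, with median depths of 2015 and 2739 UMIs. The libraries shared 0 barcodes. The 3220 kept cells fell into 11 clusters, built without the 9 genes. 4 clusters with 697 cells labelled 4T1p and 733 labelled 4T1m were monocytic-like, by markers such as Csf1r and Apoe, and 4 with 251 and 1022 cells were granulocytic-like, by markers such as S100a8 and Cxcr2. B cell-like and T cell-like clusters together held 63 cells, and 1 cluster of 454 shallow cells (median 917 UMIs) was left unnamed. Levels are counts per 1000000 UMIs of a group of cells (CPM), with exact Poisson 95% intervals, and ratios are log2 ratios of CPM. With 1 library per tumor type there are no replicates and no tests, and the intervals cover counting error only. The library is 3′-tagged, so a transcript is counted by its 3′ end whatever its length, and levels of different genes are compared on that scale. The share of transcripts that is counted can differ between genes, as for Itgam below, and was not measured.

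Itgam was the most abundant of the 9 genes, with 5936 UMIs in the kept cells, and Itgax the least abundant, with 914. In monocytic-like cells Itgam stood at 251 CPM (95% interval 236 to 266) in the library labelled 4T1p and at 469.5 CPM (453 to 486) in that labelled 4T1m. In granulocytic-like cells it stood at 285 CPM (249.8 to 324) and 359 CPM (339 to 381). Itgam had the highest level of the 5 alpha chains in each of these 4 groups. Itgax, which encodes CD11c, known from dendritic cells and macrophages, had 85.9 and 65.7 CPM in the monocytic-like cells labelled 4T1p and 4T1m, against 16.9 and 11.4 CPM in the granulocytic-like cells. Itgal, the alpha chain of LFA-1, had 61.8 and 61.6 CPM in monocytic-like cells and 56.8 and 94.7 CPM in granulocytic-like cells. Its intervals overlapped between lineages in the library labelled 4T1p, and in that labelled 4T1m the granulocytic-like level was higher, by 0.62 (0.40 to 0.84) on the log2 scale. Their common partner Itgb2 had 179 and 221 CPM in monocytic-like and 172 and 190.0 CPM in granulocytic-like cells, the narrowest range, as a ratio, of the 9 genes.

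Itgam and Itgax are neighbours on chromosome 7 of GRCm38, on the plus strand, with 11055 bases between them: Itgam spans chr7:128062640-128118491 and Itgax chr7:128129547-128150657 (GENCODE vM21). Itgal lies on the same strand 727501 bases before Itgam, at chr7:127296260-127335138. Of the genes whose sequence is not shown, Itgb2 lies at chr10:77530252-77565708, Itgb1 at chr8:128685654-128733200 and Itgb5 at chr16:33829665-33949338, all on the plus strand, and Selplg at chr5:113818536-113832644 on the minus strand. The pair of Itgam and Itgax differed in lineage pattern, so the 250 bases before each RefSeq start (GRCm38.p6, plus strand) are shown, Itgam from chr7:128062390-128062639 and Itgax from chr7:128129300-128129549. Capitals mark matches on either strand to GAGGAA, the core of sites for PU.1, a factor of myeloid cells, to TGANTCA, the AP-1 element, and to GGGCGG, the GC box.
Itgam: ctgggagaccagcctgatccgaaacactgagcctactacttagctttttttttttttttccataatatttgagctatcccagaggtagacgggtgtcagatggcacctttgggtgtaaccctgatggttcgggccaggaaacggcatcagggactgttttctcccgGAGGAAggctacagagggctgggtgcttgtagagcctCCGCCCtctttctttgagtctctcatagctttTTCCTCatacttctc
Itgax: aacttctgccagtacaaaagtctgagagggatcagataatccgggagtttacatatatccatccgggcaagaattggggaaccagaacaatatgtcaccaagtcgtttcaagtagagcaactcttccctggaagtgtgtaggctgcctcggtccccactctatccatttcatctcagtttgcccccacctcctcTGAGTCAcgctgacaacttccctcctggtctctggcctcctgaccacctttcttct
The Itgam window held 2 matches to GAGGAA, 1 on each strand, and 1 to GGGCGG, whereas the Itgax window held 1 match to TGANTCA, which reads the same on both strands. Among 32851 RefSeq promoters cut to the same 250 bases, 23.3% held GAGGAA, 6.75% TGANTCA and 32.7% GGGCGG. They are descriptions of letters in a window, and binding was not measured. Of the 9 genes, 6 were found in the promoter table, and Itgal, Itgb2 and Selplg were not.

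Counts of Itgam need a reservation. The annotation holds a readthrough transcript, Gm49368, at chr7:128062683-128128160, which the matrices list as a second row of the symbol Itgam and which shares 3450 of the 5024 exonic bases of Itgam. Reads that fit both genes are not counted by Cell Ranger, so the Itgam row holds reads from the rest, which includes the last 1000 exonic bases, where 0 were shared. The second row held 369 UMIs.

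**Figure D1:**
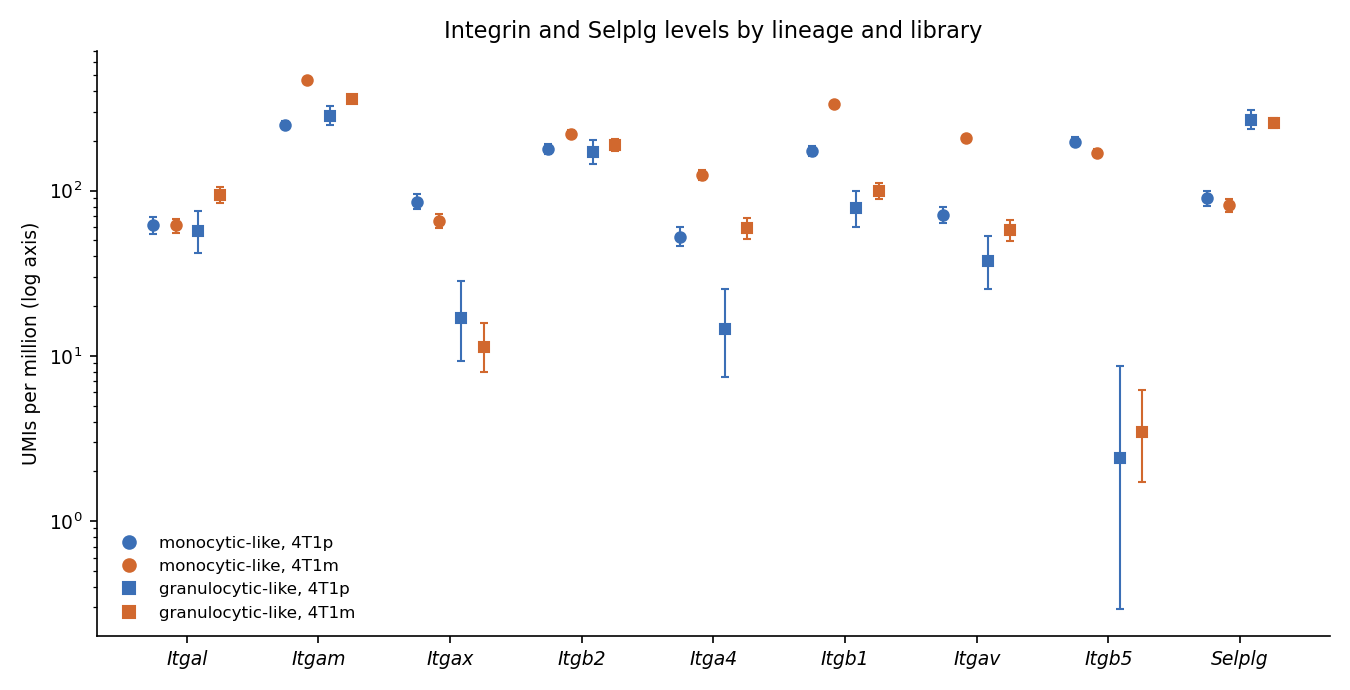
Levels of the 9 genes in CPM (log axis) in monocytic-like cells (circles) and granulocytic-like cells (squares) of the libraries labelled 4T1p (blue) and 4T1m (orange), with 95% Poisson intervals of counting error. Itgb2 stays between 172 and 221 CPM, Itgb5 falls from 198 and 169.6 CPM in monocytic-like cells to 2.4 and 3.5 CPM in granulocytic-like cells, and Selplg is the 1 gene that is higher in the granulocytic-like cells of both libraries by over 2-fold.

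The beta chains split the lineages further. Itgb5, a beta chain that pairs with Itgav, had 198 and 169.6 CPM in monocytic-like cells labelled 4T1p and 4T1m, and 2.4 CPM (2 UMIs) and 3.5 CPM (11 UMIs) in granulocytic-like cells. The residue amounts to 1.22% and 2.05% of the monocytic-like level. The 3 C1q genes, macrophage transcripts taken as a gauge of carried-over RNA, stood at 2.79% and 3.78% of theirs, and Csf1r at 7.14% and 7.73%. Itgb5 in granulocytic-like cells was thus not above these gauges, and whether it was carried over was not tested. Itgb1, the common beta chain of matrix receptors, had 175 and 333 CPM in monocytic-like and 78.5 and 99.4 CPM in granulocytic-like cells. Among the UMIs of Itgb1, Itgb2 and Itgb5, Itgb2 took 67.9% (95% binomial interval 61.2 to 74.2) and 64.9% (61.7 to 67.9) in granulocytic-like cells, but 32.5% and 30.6% in monocytic-like cells. In the latter Itgb1 took 31.6% (29.8 to 33.5) and Itgb5 35.9% (34.0 to 37.9) in the library labelled 4T1p. In that labelled 4T1m they took 46.0% and 23.4%. The lead of Itgb2 did not hold in all granulocytic-like clusters. In cluster 3, described below, Itgb1 took 68.1% and 62.8% and Itgb2 31.9% and 36.2% labelled 4T1p and 4T1m.

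Among the alpha chains that pair with Itgb1, Itga4 had 52.6 and 124 CPM in monocytic-like cells labelled 4T1p and 4T1m and 14.5 and 59.3 CPM in granulocytic-like cells. Itgav, the vitronectin receptor alpha chain, had 71.4 and 208 CPM in the former and 37.4 and 57.4 CPM in the latter. Both were therefore lower in CPM in granulocytic-like cells and higher in the library labelled 4T1m. The median gene was also lower in granulocytic-like cells, by log2 ratios of -0.98 and -1.17 labelled 4T1p and 4T1m. Selplg ran the other way between lineages, with 89.8 and 81.5 CPM in monocytic-like and 269 and 258 CPM in granulocytic-like cells, and hardly differed between libraries. A Selplg UMI was seen in 37.5% and 38.6% of granulocytic-like and 28.6% and 39.8% of monocytic-like cells. With each cell thinned to 1000 UMIs, which leaves out shallower cells, these shares were 18.3% and 18.5% against 8.98% and 6.32%.

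Within the library labelled 4T1p, 5 of the 9 genes differed by at least 2-fold between lineages, 1 higher and 4 lower in granulocytic-like cells. Of the 6896 genes that reached 50 UMIs over both groups, 60.6% did so, 11% higher and 49.6% lower. Within that labelled 4T1m, 6 of 9 did, 1 higher and 5 lower, against 64.1% of 8382 genes, 10.4% higher and 53.7% lower. These shares are near the background, and the median gene was itself lower in granulocytic-like cells, by 0.98 and 1.17 on the log2 scale. Relative to monocytic-like cells, the genes past 2-fold in both libraries were Itgb5 at -6.36 (-9.41 to -4.50) and -5.61 (-6.62 to -4.77), Itgax at -2.34 and -2.53, Itga4 at -1.86 and -1.07, Itgb1 at -1.15 and -1.74, and Selplg at 1.58 (1.34 to 1.83) and 1.66 (1.504 to 1.820). Itgav was at -0.93 in the library labelled 4T1p and at -1.85 in that labelled 4T1m. Itgam, Itgal and Itgb2 lay within 2-fold in both, except that Itgal labelled 4T1m came to 1.13 with at most 5% mitochondrial UMIs. With each cell given the same weight, Itgb1 in the library labelled 4T1p came to -0.15 and Itgav to 0.20, and Itga4 in that labelled 4T1m to -0.56. Without the 50 most abundant genes in the total the same ratios of Itgb1 and Itga4 were -0.86 and -0.75, and Itga4 was at -0.88 with at most 5% mitochondrial UMIs, so these calls of Itgb1 and Itga4 depend on the setting. The lineages also differed in content: ribosomal protein genes gave 14.4% and 11.6% of UMIs in monocytic-like and 2.91% and 2.47% in granulocytic-like cells. The part of this in the ratios was not tested.

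Lymphocyte-like cells of the library labelled 4T1m, 55 in number with a median of 4154 UMIs, served as a second gauge. A UMI of Itgam was seen in 9.09% of them, against 67.8% of monocytic-like and 51.7% of granulocytic-like cells of that library, whose median depths were 8482 and 2482 UMIs. With each cell thinned to 1000 UMIs these shares were 3.64%, 28.1% and 27.9%. Of the 14 Itgam UMIs in lymphocyte-like cells, 11 were in 2 T cell-like cells. Itgax was seen in 7.27% of the lymphocyte-like and in 3.23% of granulocytic-like cells. Thinned in the same way it was seen in 0 of 55 cells (exact binomial interval up to 6.49%) and 1.17%, so the gauge gave no clear order. The summed level of Itgax in granulocytic-like cells was 19.7% and 17.3% of the monocytic-like level in the libraries labelled 4T1p and 4T1m. That was above the 2.79% and 3.78% of the C1q genes and the 7.14% and 7.73% of Csf1r. Itga4, which lymphocytes are known to use for homing, was at 261 CPM in the lymphocyte-like cells, above its 124 CPM in monocytic-like cells.

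The 9 genes differed among the granulocytic-like clusters. Cluster 8 was led by Camp, Ngp and Ltf, genes of neutrophil granule proteins, and cluster 6 by Slc2a3, Prok2 and Cxcr2. Cluster 5 was led by Mirt1, Hdc and Il1f9, and cluster 3 by Ccdc126, Tnfrsf23 and Il15. Clusters 8, 6, 5 and 3 held 24 and 153, 45 and 268, 105 and 276, and 77 and 325 cells labelled 4T1p and 4T1m. Selplg had 351, 451, 282 and 67.7 CPM in clusters 8, 6, 5 and 3 of the library labelled 4T1p, and 355, 279.7, 307 and 68.0 CPM in that labelled 4T1m. It was thus lowest in cluster 3 in both libraries, where its intervals (36.0 to 116 and 51.1 to 88.7 CPM) did not reach those of the other 3 clusters. Itgb2 had 313, 147, 143 and 78.1 CPM in clusters 8, 6, 5 and 3 labelled 4T1p, and 271, 157, 198 and 99.5 CPM in those labelled 4T1m. It was highest in cluster 8 and lowest in cluster 3 in both. Each pair of neighbours in that order overlapped in the library labelled 4T1p, and clusters 5 and 6 alone did in that labelled 4T1m.

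Itgb1 and Itgav ran in the opposite direction. Itgb1 went from 4.7 CPM (1 UMI) in cluster 8 to 167 CPM in cluster 3 of the library labelled 4T1p, and from 29.6 to 173 CPM in that labelled 4T1m. Itgav went from 9.5 CPM (2 UMIs) to 104 CPM and from 26.7 to 142 CPM. Clusters 6 and 5 lay between for Itgb1 in both libraries, at 63.0 and 78.9 CPM labelled 4T1p and 73.8 and 129.7 CPM labelled 4T1m. Itgam showed no such slope, with 284 and 328 CPM in clusters 8 and 3 labelled 4T1p, and 359.7 and 411 CPM in those labelled 4T1m.

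Clusters 3 and 8 were set against each other after their values were seen, so these ratios are descriptions. In the library labelled 4T1m, 7 of the 9 genes had at least 50 UMIs in the 2 clusters, 2 were at least 2-fold higher in cluster 3 and 4 at least 2-fold lower, and 47.1% of 2908 genes differed by as much, 32.1% higher and 15% lower. The higher ones were Itgb1 at 2.54 (1.96 to 3.16) and Itgav at 2.42 (1.80 to 3.08), and the lower ones Itga4 at -2.93, Itgal at -2.44, Selplg at -2.38 (-2.82 to -1.97) and Itgb2 at -1.44. In the library labelled 4T1p, 3 genes could be compared and 2 were at least 2-fold lower, Selplg at -2.37 and Itgb2 at -2.001, with 60.1% of 863 genes past 2-fold, 44.5% higher and 15.6% lower. All genes tested had medians of 0.48 and 0.84 in these comparisons of the libraries labelled 4T1m and 4T1p. Selplg and Itgb2 thus ran against the median in both libraries, and Itga4 and Itgal in that labelled 4T1m. Itgal had 0 UMIs in cluster 3 labelled 4T1p, where 3 counts would be 15.6 CPM, and 23.9 CPM in cluster 3 labelled 4T1m, against 75.8 and 129 CPM in cluster 8. Clusters 3 and 8 also differed in depth, with medians of 2048 and 5477 UMIs over both libraries, and in granulocytic marker UMIs, with 57536 and 359518 CPM labelled 4T1p and 69880 and 291323 CPM labelled 4T1m. The part of these in the ratios was not tested.

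**Figure D2:**
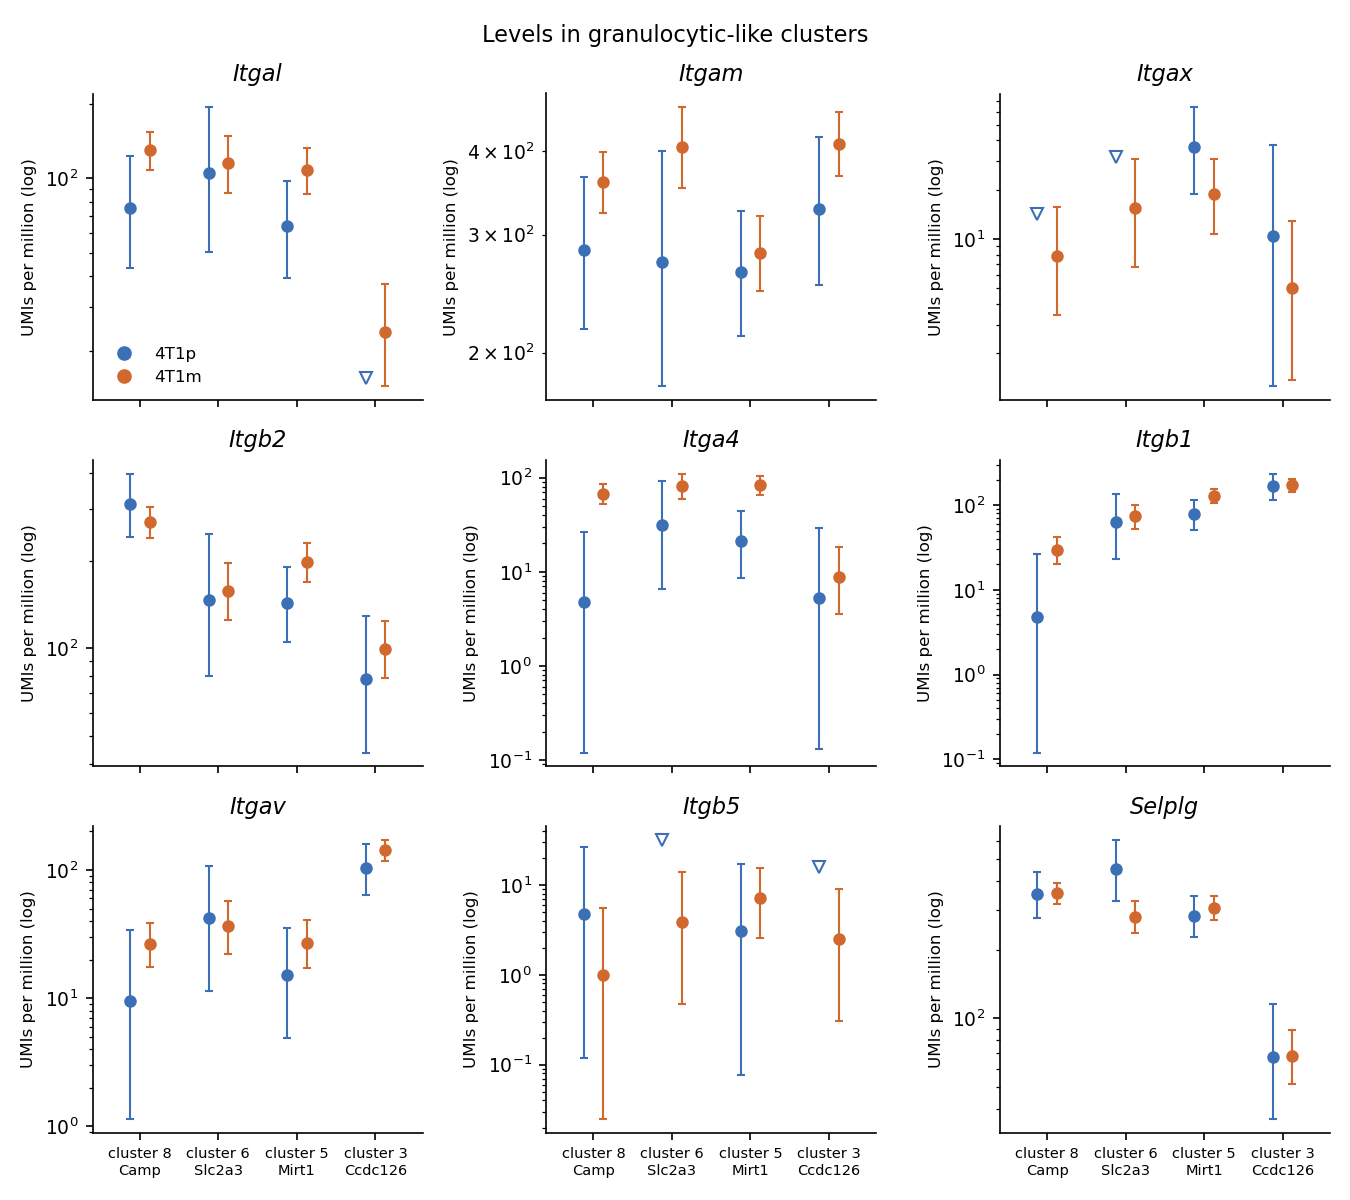
Levels of the 9 genes in CPM (log axes, a scale per panel) in the 4 granulocytic-like clusters, each labelled with its leading gene, for the libraries labelled 4T1p (blue) and 4T1m (orange), with 95% Poisson intervals. Open triangles stand at 3 counts where no UMI was seen. Selplg, Itgb2 and Itgal are lower and Itgb1 and Itgav higher in cluster 3 than in cluster 8, while Itgam stays between 264 and 411 CPM.

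The monocytic-like clusters also differed. Cluster 1 was led by Tmem176a, Aif1 and the antigen presentation gene H2-Eb1, cluster 7 by the cell cycle genes Birc5 and Top2a, cluster 2 by Ccl5, Ifnb1 and Cxcl9, and cluster 4 by Thbs1, Vcan and F13a1. Their make-up differed by library: cluster 1 was the largest of those labelled 4T1p, with 304 cells against 118 labelled 4T1m, and cluster 4 the largest of those labelled 4T1m, with 296 against 89. Clusters 1 and 7 were shallow, with medians of 1174.5 and 1413 UMIs, and clusters 2 and 4 deep, with 13703 and 10227, so the summed levels of the lineage rest mainly on clusters 2 and 4.

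Itgam had 104, 122, 212 and 496 CPM in clusters 1, 7, 2 and 4 of the library labelled 4T1p, and 199, 221, 331 and 642 CPM in that labelled 4T1m. The order was the same in both libraries, cluster 4 stood apart from cluster 2 and cluster 2 from cluster 7, and only clusters 7 and 1 overlapped. Itgb5 was highest in cluster 2, at 241 and 229 CPM, and stood at 131 and 122 CPM in cluster 4. Itgal was also higher in cluster 2, at 77.0 and 89.6 CPM, than in cluster 4, at 32.8 and 36.6 CPM. Its highest level labelled 4T1p was in cluster 7, at 80.3 CPM. These 3 genes thus kept their order between clusters 2 and 4 from library to library.

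Cluster 4 over cluster 2, also a comparison taken up after the values were seen, placed Itgam at 1.23 (1.04 to 1.41) in the library labelled 4T1p and 0.96 (0.84 to 1.07) in that labelled 4T1m, Itgal at -1.23 and -1.29, Itgb5 at -0.88 and -0.90 and Itga4 at -0.81 and -0.95. Past 2-fold were 1 of 9 genes higher and 1 lower in the library labelled 4T1p, with 10.4% of 5855 genes as background (5.04% higher, 5.31% lower). In that labelled 4T1m 0 were higher and 2 lower, with 8.54% of 7580 genes (4.23% higher, 4.3% lower). Itgax was the gene on which the libraries parted: it had 93.03 and 92.8 CPM in clusters 2 and 4 labelled 4T1p, and 93.8 and 42.6 CPM in those labelled 4T1m, for ratios of -0.003 (-0.38 to 0.36) and -1.14 (-1.44 to -0.84).

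**Figure D3:**
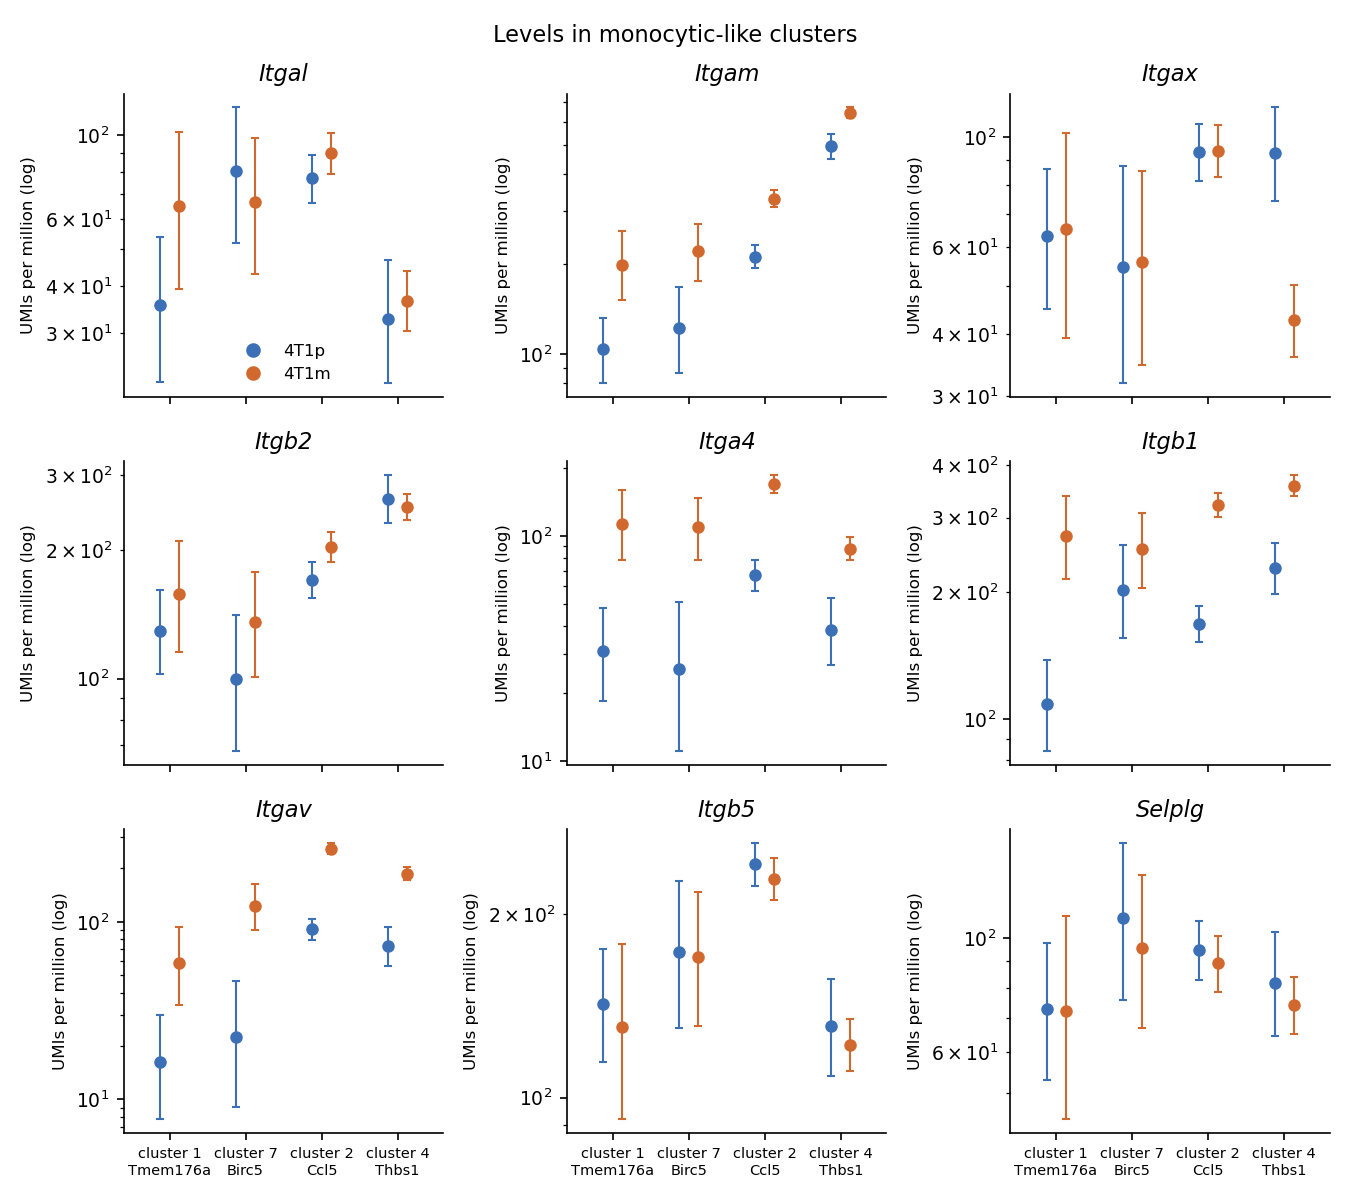
Levels of the 9 genes in CPM (log axes, a scale per panel) in the 4 monocytic-like clusters, each labelled with its leading gene, for the libraries labelled 4T1p (blue) and 4T1m (orange), with 95% Poisson intervals. Itgam is lowest in cluster 1 and highest in cluster 4 in both libraries, Itga4 and Itgav are higher in the library labelled 4T1m in each of the 4 clusters, and Itgb5 nearly coincides between libraries.

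Between the libraries, the question was whether adhesion genes of myeloid cells differ between tumors that resist and tumors that respond to anti-PD1. In monocytic-like cells 2 of the 9 genes were past 2-fold, both higher in the library labelled 4T1m, while 9.47% of 8843 genes were past 2-fold, 7.46% higher and 2% lower. The 2 were Itgav, at 1.54 (1.36 to 1.72), and Itga4, at 1.24 (1.03 to 1.46). Itgb1 at 0.93 (0.81 to 1.05) and Itgam at 0.91 (0.81 to 1.01) fell just short. The others were Itgb2 at 0.30 (0.18 to 0.43), Itgal at -0.004 (-0.23 to 0.22), Selplg at -0.14 (-0.33 to 0.05), Itgb5 at -0.23 (-0.36 to -0.10) and Itgax at -0.39 (-0.59 to -0.18), and the median of all genes was 0.10. VLA-4 chains and Itgav thus stood above the median gene in the library labelled 4T1m and Itgb5, a partner of Itgav, did not. For Itgam the direction was opposite to the study's, which reported more Itgam in monocytic cells enriched in 4T1p than in those enriched in 4T1m. The study compared cells selected by differential abundance, whereas the ratio here covers all monocytic-like cells, so the sets of cells differ. The direction also rests on the library labels, and each library has the median UMI count that the study gives for the other. With labels exchanged the direction would be the study's, and which of these lies behind the contrast was not tested.

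In granulocytic-like cells 1 of 8 genes with at least 50 UMIs was past 2-fold, with 10.4% of 4491 genes as background (7.15% higher, 3.25% lower). It was again Itga4, at 2.03 (1.19 to 3.01), on 12 UMIs labelled 4T1p and 188 labelled 4T1m. Itgal followed at 0.74 (0.29 to 1.21), Itgav at 0.62 (0.06 to 1.22), Itgb1 at 0.34 (-0.05 to 0.75) and Itgam at 0.33 (0.13 to 0.54), and Selplg was at -0.06 (-0.28 to 0.16). The median of all genes was 0.06.

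The make-up of the lineages differed between libraries, so the ratios were also taken within clusters, where at least 50 UMIs allowed it. Itga4 was higher in the library labelled 4T1m in 5 of 5 clusters, from 1.199 in cluster 4 to 3.83 in cluster 8, the latter with an interval of 1.30 to 9.15 since it rests on 1 UMI labelled 4T1p. Itgav was higher in 4 of 4, at 2.44 in cluster 7, 1.505 in cluster 2, 1.35 in cluster 4 and 0.45 in cluster 3. The intervals lay above 0 in 5 of 5 clusters for Itga4 and 3 of 4 for Itgav. The limit is on the UMIs of both libraries together, so a cluster can pass it mainly by the higher one. Itgav in cluster 7 rested on 7 UMIs labelled 4T1p and 46 labelled 4T1m. Below the limit, Itgav was at 1.85, 0.84 and 1.49 in clusters 1, 5 and 8, and at -0.02 and -0.19 in clusters 0 and 6. Itga4 below it ran from 0.76 in cluster 3 to 2.42 in cluster 0. Itgam had ratios from 0.09 to 0.94 in 9 clusters, with intervals above 0 in 5 of them and in 0 of the 4 granulocytic-like ones, and Itgb1 ratios from 0.05 to 1.32 in 7, above 0 in 5. Itgb5 and Selplg had ratios from -0.13 to -0.03 and from -0.19 to -0.02 in the 4 monocytic-like clusters, each within its counting interval of 0. In granulocytic-like cluster 6 Selplg was at -0.69 (-1.19 to -0.16), on 43 UMIs labelled 4T1p and 144 labelled 4T1m. In clusters 3, 8 and 5 it was at 0.007, 0.02 and 0.12, with intervals that held 0. The lower summed level of Itgax in the library labelled 4T1m came with a ratio of -1.12 in cluster 4 and ratios of 0.01 and 0.05 in clusters 2 and 1, and with each cell given the same weight the ratio of the lineage was 0.07.

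Other measures differed between the libraries too. In monocytic-like cells the median depth was 1897 UMIs labelled 4T1p and 8482 labelled 4T1m, the summed monocytic markers 40033 and 26124 CPM, the C1q genes among them 10010.5 and 5297 CPM, and the ribosomal share 14.4% and 11.6%. The study, by contrast, listed C1q genes among those of the monocytic cells enriched in 4T1m. Those cells were selected by differential abundance and are a part of the lineage, whereas the values here cover all of it. This contrast too would turn round if the library labels were exchanged, which was not tested. Ptprc, the CD45 gene of all leukocytes, had 438 and 794 CPM in monocytic-like and 691 and 1644 CPM in granulocytic-like cells labelled 4T1p and 4T1m, and Malat1, a nuclear RNA, 11529.8 and 16410.3 CPM and 29099.5 and 35962 CPM. Among cells with a Ptprc UMI the counts of genes past 2-fold stayed at 2 in monocytic-like and 1 in granulocytic-like cells. The share of all genes passing in these cells is not given, so the 2 counts have no background. The 3 erythroid genes of the marker lists summed to 8.89 CPM in monocytic-like cells labelled 4T1p and 1515 CPM in those labelled 4T1m, while the 3 endothelial genes gave 8.19 and 6.48 CPM and the 4 fibroblast genes 0.47 and 2.51 CPM. The part of all these measures in the ratios was not tested.

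For the 2 genes past 2-fold in monocytic-like cells, both on chromosome 2 of GRCm38 on the plus strand, Itga4 at chr2:79255426-79333123 and Itgav at chr2:83724397-83806916, the 250 bases before the RefSeq start are shown from chr2:79255176-79255425 and chr2:83724147-83724396, with the same 3 motifs in capitals.
Itga4: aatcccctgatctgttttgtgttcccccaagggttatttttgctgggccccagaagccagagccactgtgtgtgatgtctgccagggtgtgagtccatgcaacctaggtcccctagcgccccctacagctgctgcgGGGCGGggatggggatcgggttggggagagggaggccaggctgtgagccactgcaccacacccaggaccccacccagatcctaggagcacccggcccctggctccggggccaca
Itgav: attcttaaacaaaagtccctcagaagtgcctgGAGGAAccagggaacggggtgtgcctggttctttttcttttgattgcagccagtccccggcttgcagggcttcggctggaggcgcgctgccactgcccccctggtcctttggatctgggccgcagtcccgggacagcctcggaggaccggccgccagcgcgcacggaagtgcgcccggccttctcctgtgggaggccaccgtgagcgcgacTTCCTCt
Itga4 held 1 match to GGGCGG and Itgav 2 to GAGGAA, so the windows shared none of the 3 motifs.

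**Figure D4:**
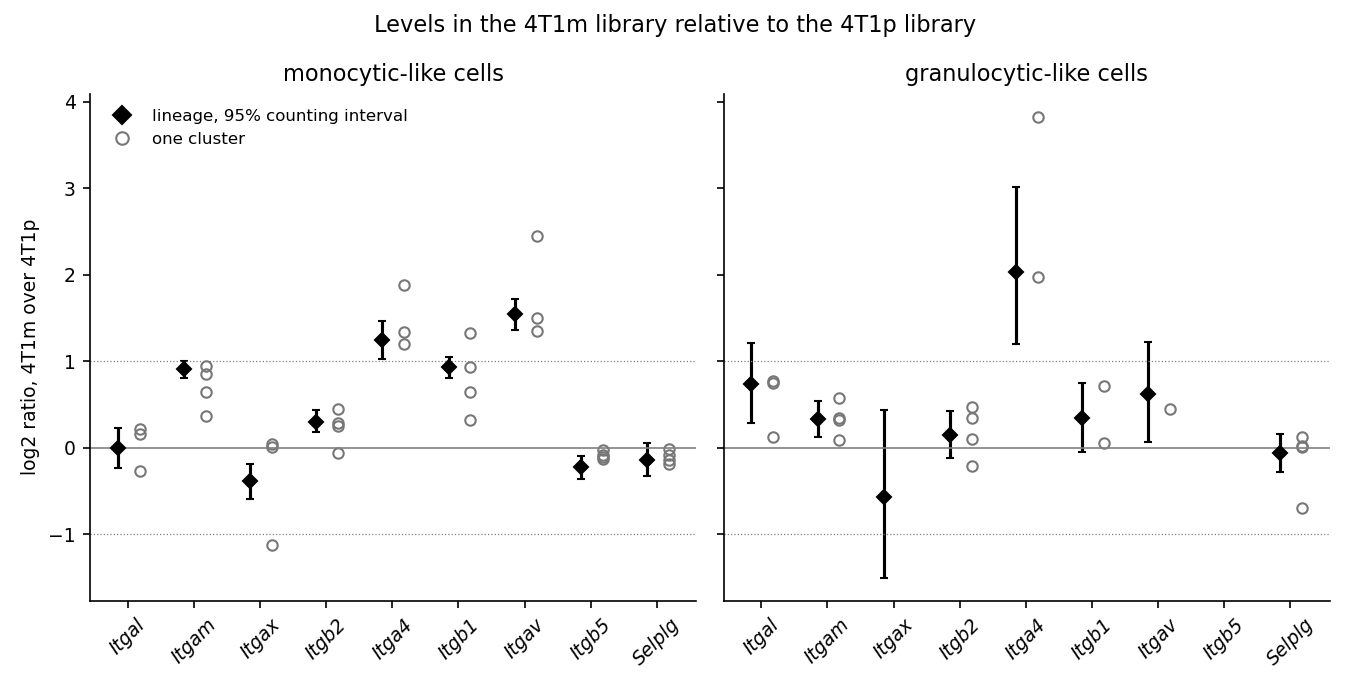
The log2 ratio of levels, library labelled 4T1m over that labelled 4T1p, in monocytic-like (left) and granulocytic-like cells (right), for the lineage as a whole (black diamonds with 95% counting intervals) and for single clusters with at least 50 UMIs (open circles). Dotted lines mark 2-fold. Itgav and Itga4 lie above the upper line in monocytic-like cells, Itga4 alone in granulocytic-like cells, and Itgb5 and Selplg lie near 0 in monocytic-like cells. Itgb5 in granulocytic-like cells is not drawn, as it had under 50 UMIs.

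The 3 alpha chains that pair with Itgb2 were compared as shares of their own UMIs, which does not depend on the total of the other genes. Itgam made up 62.9% (60.6 to 65.2) of them in monocytic-like cells labelled 4T1p and 78.7% (77.4 to 79.9) in those labelled 4T1m, and 79.5% (74.4 to 83.9) and 77.2% (75.0 to 79.3) in granulocytic-like cells. The intervals of the libraries overlapped in granulocytic-like and not in monocytic-like cells. Within monocytic-like clusters the share was higher in the library labelled 4T1m in each: 60.4% against 51.2% in cluster 1, 64.3% against 47.5% in cluster 7, 64.3% against 55.5% in cluster 2 and 89.0% against 79.8% in cluster 4. The intervals overlapped in cluster 1 (42.1 to 60.2 and 49.9 to 70.2) and in cluster 7 (36.2 to 59.0 and 55.4 to 72.6), and not in clusters 2 and 4. Cluster 3, a granulocytic-like cluster, had the highest shares, 96.9% and 93.4%, and the lymphocyte-like cells labelled 4T1m a share of 35.0% (20.6 to 51.7).

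**Figure D5:**
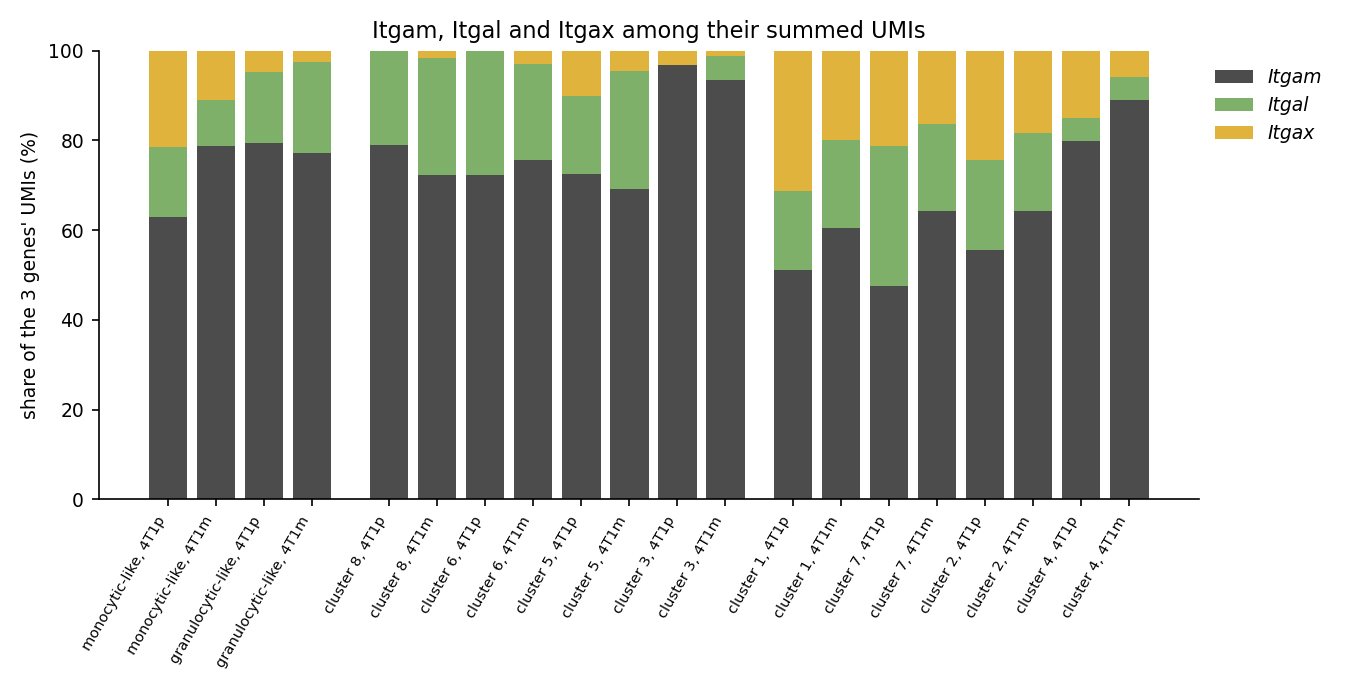
Shares of Itgam, Itgal and Itgax among their summed UMIs (percent), by lineage (left 4 bars) and by granulocytic-like (middle) and monocytic-like clusters (right) in each library. Itgam stands at 96.9% and 93.4% in cluster 3, and Itgax is seen mainly in monocytic-like clusters.

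Other genes of adhesion were read from 5 lists with 71 genes in all, set up with earlier results of these data known. Of the 19 other integrins, 4 had at least 50 UMIs in the lineage comparisons. All 4 were at least 2-fold lower in granulocytic-like cells of both libraries, as were 49.6% and 53.7% of all genes tested. Examples were Itga9 at 1.26 CPM against 73.5 CPM and Itga6 at 2.21 against 43.0 CPM in the library labelled 4T1m. In the 8 tested ligands of leukocyte integrins, 7 were lower by at least 2-fold in both libraries, with a list median of -3.15 and -3.68, among them Fn1 (fibronectin) at -6.06 and -5.21 and Vcam1, which had 105 and 113 CPM in monocytic-like cells and 0 and 4.1 CPM in granulocytic-like cells. Itgb7, a beta chain that pairs with Itga4, was at -3.09 and -4.03. Icam1, the ligand of LFA-1 and Mac-1, was the exception, at 1.01 and 0.14.

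Selectins and the enzymes that build sugars on selectin ligands were split. Of 8 genes tested labelled 4T1p, 4 were at least 2-fold higher and 3 lower in granulocytic-like cells, and of 9 labelled 4T1m, 5 were higher and 2 lower. Over all genes tested, 11% and 10.4% were higher by as much and 49.6% and 53.7% lower. The sialyltransferase gene St3gal6, a leading gene of cluster 5, was at 2.90 and 3.41, Gcnt1, which starts the branched core of these sugars, at 2.16 and 2.00, and Selp at 3.63 in the library labelled 4T1m. B4galt1 and the tyrosine sulfotransferase gene Tpst1 were lower, at -1.17 and -2.02 and at -2.46 and -2.76. St3gal4 was at 1.03 and 1.84.

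Genes of integrin activation were mixed. Of 13 tested labelled 4T1p, 4 were at least 2-fold higher in granulocytic-like cells and 2 lower, and of 14 labelled 4T1m, 4 and 1. All genes tested gave 11% and 10.4% higher by as much and 49.6% and 53.7% lower. Fermt3 (kindlin-3), which binds beta chains inside the cell, was lower, at -2.43 and -1.80, while Apbb1ip (RIAM) was higher, at 1.28 and 1.04, as were Rasgrp4, at 1.77 and 1.79, and Vcl (vinculin), at 1.76 and 1.06. Pram1 was at 3.21 in the library labelled 4T1m. Tln1 (talin) was at -0.72 and -0.81. Of the other adhesion receptors Cd9 was higher, at 2.41 and 1.29, and Cd151, its relative, lower, at -3.44 and -2.62. At least 2-fold higher were 3 of 6 tested labelled 4T1p and 1 of 7 labelled 4T1m, and 1 and 2 were lower by as much.

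Between the libraries in monocytic-like cells, 1 of 4 other integrins was at least 2-fold higher in that labelled 4T1m, Itga5, the fibronectin receptor alpha chain, at 1.12 and with 60.4 against 27.8 CPM. Of 8 ligands 2 were higher, Fn1 at 1.05 and Thbs1 at 3.52, the latter a leading gene of cluster 4. Of 7 other receptors 3 were, Cd44 (the hyaluronan receptor) at 1.39, Alcam at 1.59 and Cd36, a receptor of thrombospondin, at 1.68. Of 9 selectin genes and enzymes 2 were, among them Fut4 at 1.72, and of 13 activation genes 0 were, with Tln1 at 0.71, Rap1b at 0.67 Rasgrp2 at 0.94 and Vcl at 0.97. No gene of these lists was lower by 2-fold. All genes tested gave 7.46% at least 2-fold higher and 2% lower. In granulocytic-like cells the same lists gave 2 of 5 ligands (Fn1 at 1.90 and Thbs1 at 2.99), 0 of 13 activation genes, 0 of 5 other receptors and 0 of 8 selectin genes and enzymes past 2-fold, and no other integrin had enough UMIs. The greatest ratios among the last 3 lists were 0.84 for Glg1, 0.82 for Cyth1 and 0.44 for Cd44. All genes tested in granulocytic-like cells gave 7.15% at least 2-fold higher and 3.25% lower.

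Likeness of pattern was measured as Pearson's r of log2(CPM + 10) over 20 groups, the clusters split by library, among 6418 genes. The groups share libraries and depth, so r is given as a description. Itgb5 had the closest matches, Cmklr1, Mmp14 and Plxdc2, each at 0.98, and Itgax followed with Mfsd5 at 0.94 and Vps53 and Fam105a at 0.93. Itgb1 was most like Pcbp1 and Eif4e (both 0.92) and Supt5 (0.90), Itgam most like App (0.91), Mxi1 (0.90) and Emilin2 (0.89), and Selplg most like Slc9a3r1 (0.90), the sialyltransferase gene St3gal4 (0.89) and Nadk (0.85). Itga4 was most like Btbd10 (0.89), Jarid2 and Ythdc2 (both 0.87). Itgav was most like Csnk1a1 (0.87), Zmiz1 and Slc23a2 (both 0.86), Itgal most like Cdc42se1 (0.87), Fam129a (0.83) and Hcls1 (0.76), and Itgb2 most like Agap1, Pira2 (both 0.83) and Pirb (0.80).

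The unnamed cluster, led by Fabp5, AY036118 and Lgals1, had the Itgb1 level of 205 CPM labelled 4T1p and 425 CPM labelled 4T1m, and 212 and 357 CPM of Itgam. Its Itgb5 stood at 85.7 and 113 CPM and its Selplg at 40.5 and 47.7 CPM. Itga4 there was on 5 UMIs labelled 4T1p and 36 labelled 4T1m. AY036118 and Gm42418, both among its leading genes, were removed by the study as rRNA contamination. In this cluster the monocytic markers summed to 21668 and 18980.5 CPM labelled 4T1p and 4T1m, with 6668 and 4487 CPM from the C1q genes among them. Sums of other lists there were far smaller, such as the fibroblast genes at 2.38 and 434 CPM and the endothelial genes at 202 and 1.77 CPM.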

How the data were processed

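GR-1+ cells of anti-PD1-treated 4T1p and 4T1m tumors were profiled in 1 library each. The count values are UMI counts per gene and barcode in filtered matrices deposited by the authors, aligned to mm10 with Cell Ranger per the submitters' processing notes. The matrix header names software 3.1.0, another version than the methods of the study. Totals were 9021132 UMIs (4T1p) and 14840190 UMIs (4T1m).

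The 9 genes, the lists and the comparisons were chosen with earlier results of these data known. Barcodes with 250 to 5000 genes, at most 27000 UMIs and at most 12.5% mitochondrial UMIs were kept. 58 symbols occur in 2 feature rows, of which the first was used. Counts were merged and normalized with SCTransform (R 4.3.3, Seurat 5.3.0, sctransform 0.4.2, Matrix 1.6.5), and clustered on 3000 variable genes less the 9, 11 principal components and resolution 0.8. No doublets were removed. Clusters were called B or T cell-like when 25% or more of their cells held a UMI for 2 or more of 3 lineage markers. Otherwise they took the lineage with the higher mean score over its markers. The score was the share of cells with a UMI, divided by the highest such share among the clusters. 1 cluster stayed unnamed, since its median depth was under 1/3 of the library's in the library labelled 4T1m (896.5 of 2739 UMIs, against 993.5 of 2015 labelled 4T1p) and no monocytic marker was among its 10 leading genes.

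UMIs were summed over groups of cells and given as CPM, with exact Poisson or binomial 95% intervals (Python 3.11.15, numpy 2.4.6, scipy 1.17.1, pandas 2.3.3, matplotlib 3.10.9). A ratio needed 50 UMIs over both groups, and a difference of at least 2-fold was counted. A group with 0 UMIs was set at 3 counts for a bound. There are no replicates, so no test was run. On simulated counts for the comparison of 4T1m over 4T1p (9577 genes, 200 changed), 100% of genes changed 4-fold and 0.139% of unchanged genes passed 2-fold. The simulation drew Poisson counts at the summed depth of all kept cells of a library, without variation between cells, mice or libraries. It checks the arithmetic and gives no error rate for the comparisons of lineages or libraries.

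Named were the 9 genes, the 3 genes of each list with the greatest change in each comparison of lineages or libraries among those with at least 50 UMIs, and the 3 genes most alike in pattern among those with at least 200 UMIs. St3gal4 and Apbb1ip were added after their values were seen, and 1 gene that the rule names is not reported here. 12 planned and 4 added alternatives were tried, among them a Scrublet filter (scanpy 1.11.5). Gene places are from GENCODE vM21 and upstream sequences from RefSeq. Other data of the study were not analysed here.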

Additional observations from a re-analysis of the deposited data

How the results depend on the processing

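No paired analysis was possible because each condition has 1 library. No ratio or count reversed its call under the 12 planned and 4 added alternatives, the latter chosen after seeing the data. Many moved all the same: 83 of 522 results in all. Those were 32 of 36 with thinning to 500 UMIs, 17 of 36 with a mean over cells and 10 of 36 without the 50 most abundant genes, among others. Some ratios also changed sign, as listed below. The number of genes past 2-fold between libraries in granulocytic-like cells was 1. It became 2 with at most 5% mitochondrial UMIs and with a mean over clusters (Itgal joined). It was also 2 with lineage by each cell's marker UMIs and with a mean over cells (Itgb5 joined, on few UMIs). In the main setting Itgb5 had 2 UMIs labelled 4T1p and 11 labelled 4T1m, under the limit of 50. The main count left Itgb5 out for this, so counts with it are not like for like. The number became 3 with a fold of at least 1.5. In monocytic-like cells the number, 2, became 4 with a mean over cells (Itgam and Itgb1 joined) and 4 with a fold of at least 1.5. The share of all genes passing is not given for these alternatives, so their counts have no background here. A fold of at least 1.5 is a looser cut, which any set of genes passes more often. With at most 5% mitochondrial UMIs the share of Itgam among Itgal, Itgam and Itgax UMIs in monocytic-like cells moved to 69.5% (4T1p) and 83.7% (4T1m). Between lineages, Itgal labelled 4T1m passed 2-fold with at most 5% mitochondrial UMIs (1.13), and Itgav labelled 4T1p with Scrublet-scored cells left out (-1.01) and without mitochondrial and ribosomal genes (-1.16). The cause was not tested.

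Lineage ratios of Itgam, Itgal and Itgb2 labelled 4T1p crossed 0 under some alternatives, from -0.08 to 0.72, -0.35 to 0.49 and -0.29 to 0.23. So did, each under 1 alternative, Itgav labelled 4T1p (0.20 with a mean over cells), Itgb2 labelled 4T1m (0.09 without the 50 most abundant genes) and, between libraries, Itgax in monocytic-like (0.07 with a mean over cells) and in granulocytic-like cells (0.42 with a mean over clusters) and Itgb5 in granulocytic-like cells (-0.25 with a mean over clusters). Itgal in monocytic-like cells, near 0, ran from -0.06 to 0.36. The median of all genes between lineages, -0.98 and -1.17, moved to -0.69 and -0.86 without the 50 most abundant genes, and that between libraries in monocytic-like cells from 0.10 to 0.20 with a mean over cells. Low UMI numbers limit Itgb5, Itgax and Itga4 in granulocytic-like cells labelled 4T1p, and counting intervals do not cover differences between mice.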

Other observations

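Barcodes outside the limits showed the library difference of Itga4 too. In the 443 and 560 barcodes over the mitochondrial limit Itga4 had 52.8 CPM labelled 4T1p and 109 CPM labelled 4T1m, and Itgam 148 and 224 CPM. Itgav there had 108 CPM (90.7 to 127) and 127 CPM (111 to 144), with overlapping intervals. Itgb5 was lower in those labelled 4T1m, at 66.5 CPM (55.3 to 79.3) against 110 CPM (92.8 to 130). In the 56 and 56 barcodes over the UMI limit Itga4 had 49.0 and 122 CPM, Itgav 54.7 and 118 CPM and Itgb1 222 and 427 CPM. Itgb5 had 161 and 169 CPM in the barcodes over the UMI limit.

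The second row of Itgam, the readthrough transcript, differed from the first between lineages. It had 10.5 and 18.9 CPM in monocytic-like and 56.8 and 43.2 CPM in granulocytic-like cells, a log2 ratio of 2.43 (1.81 to 3.05) labelled 4T1p and 1.197 (0.84 to 1.56) labelled 4T1m, where the first row had 0.19 and -0.39.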
